A study of Bombyx mori with 3 samples.

Results

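The silkworm genes for splicing factors and other RNA-binding proteins were followed in the fat body after feeding with the insecticide phoxim. A gene probe was a member where its description contained a splicing, snRNP, hnRNP, SR protein, RNA helicase, exosome component, pre-mRNA, TBPH or RNA-binding term and named no tRNA, initiation factor or ribosomal protein. This rule took 158 of the 23229 gene probes on the array, the same 158 in each array file, and it used no measured value. Bombyx mori larvae of strain p50, of both sexes and on day 3 of the fifth instar, were fed leaves treated with 4 µg/mL phoxim. Control larvae received leaves treated with water. Fat bodies were dissected 24 h after the start of feeding, with 30 larvae per experiment, and each of 3 two-colour arrays carried the treated and the control RNA of the same replicate number. Phoxim is an organophosphate, a class of insecticides that inhibit acetylcholinesterase, and the fat body does the work in insects that liver and adipose tissue do in vertebrates. The comparison asks which of these transcripts differed in level between treated and control larvae.

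Introns are removed from pre-mRNA by the spliceosome, which is built for each intron from small nuclear ribonucleoproteins (snRNPs) and many added proteins. The U2 snRNP with its SF3a and SF3b parts recognises the branch site, and the U5 snRNP with Prp8 and a large helicase sits at the catalytic centre. SR proteins and hnRNPs bind exons and introns and bias the choice of splice sites, DEAD-box and DEAH-box helicases remodel RNA and protein contacts, and the exosome trims or degrades RNA from its 3′ end. These genes are active in nearly every cell, so in a dissected organ their signal is a sum over all of its cell types, in which fewer cells of a type and less RNA per cell cannot be told apart.

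Descriptions were copied onto the probes from the best matching proteins of other species. Only 21 members carried a gene ID, all of which were found in RefSeq, and 137 carried none. By wording alone, 25 of the 158 members had been taken in, for instance a cell adhesion molecule described by its alternative splicing, and were kept but counted apart. A GO molecular function was given for 92 members, of which 70 were annotated with RNA or nucleic acid binding and 19 with helicase activity. Several probes shared a protein description, so members are probes and not independent genes. No member was saturated on any array or marked for cross-hybridisation.

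A probe was tested where at least 1 of the 2 RNAs on every array was brighter than the 95th percentile of the blank spots. Of the 158 members 71 passed, or 44.9%, against 26.5% of all gene probes. Without the members matched by wording the share was 51.1%, 68 of 133. Both RNAs exceeded the blank spots on all arrays for 58 members. The other 13 tested members had an RNA at or below the blank spots on at least 1 array, so their ratios rest on a dim signal there. Among the probes named below these are PRP4 kinase, sw09177, sw05818, sw13562, sw20202, sw16334, sw11494 and sw13805. Of the 87 members not tested, 42 were above the blank spots in neither RNA on any array, 23 in phoxim RNA only, 1 in control RNA only and 21 in both but not on every array. The blank spots were brighter in Cy3 than in Cy5 on each array, and phoxim RNA was in Cy5 on replicates 1 and 3, so these detection counts move with the dye. Detection was uneven among the roles. The snRNP and Sm proteins had 11 of 16 members tested, the branch site factors 8 of 11 and the exosome 4 of 5, but the hnRNPs had 2 of 11 and the SR proteins 4 of 12. Among the hnRNPs, the probes described as A1, A/B-like, F, I-related and M were not bright enough on every array to be tested.

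The file header of replicate 2 places phoxim RNA in Cy3, whereas the labels place it in Cy5 on every array, and the header was followed. Ratios are given as log2 of phoxim over control after normalization, where 1 stands for a 2-fold higher and -1 for a 2-fold lower level in treated larvae. Across all 6154 tested probes the ratios of the arrays correlated weakly, at r = 0.03 for replicates 1 and 2, 0.35 for 1 and 3 and 0.27 for 2 and 3. Read in the labelled dye order, replicate 2 correlated with replicate 3 at -0.27. Storage proteins, lipoproteins and other fat body markers were bright, with 31 of 45 probes tested, 8 saturated and a median ratio of 0.22. Midgut markers were bright enough on 0 of 14 probes. The medians were 0.30 for 11 of 42 hemocyte probes, -0.52 for 3 of 12 silk gland probes, 0.00 for 20 of 90 epidermis probes and -0.07 for 15 of 54 gonad probes. On replicates 1, 2 and 3 the fat body median was 0.98, -0.42 and 0.27 and the hemocyte median 1.09, -0.29 and 0.16. The silk gland, epidermis and gonad medians were also above 0 on replicate 1 and below 0 on replicate 2. Muscle markers had the highest median of these tissues, and the cause was not tested. Of 57 such probes 28 were tested. On all arrays 14 of them were higher in phoxim RNA and 0 lower, against 18.2% and 17.1% of all probes. Their median was 1.08, with 2.28, 0.23 and 0.52 on replicates 1, 2 and 3. The level after normalization within and between arrays was summed over all 57 probes, tested or not. This sum was 115181 to 185845 in phoxim RNA and 38456 to 110580 in control RNA. On replicate 2 these sums were close, at 119367 and 110580. The part of this muscle signal in the members' ratios was not tested.

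No member passed the test after correction. With limma and Benjamini-Hochberg adjustment over all tested probes, 0 of 71 members had an adjusted p under 0.05, as did 0% of the 6154 probes, and the lowest adjusted p of a member was 0.31. At an unadjusted p under 0.05 there were 12 members, 16.9% of those tested, against 10.9% of all probes. Of these, 6 were higher in treated larvae and 6 lower, against 6.13% and 4.81% of all probes. The same sign on all 3 arrays was found for 30 members, or 42.3%, against 35.3% of all probes. Here 14 were higher, against 18.2% of all probes, and 16 lower, against 17.1%. A mean difference of at least 2-fold was reached upward by 1 member and downward by 3, against 4.26% and 2.52% of all probes. The median over the members was -0.03 and that over all probes 0.00, and 32 of the 71 members were above 0, against 50.3% of all probes. The values below are therefore measured differences that did not pass the corrected test, and they are read against the spread of the 3 arrays.

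**Figure D1:**
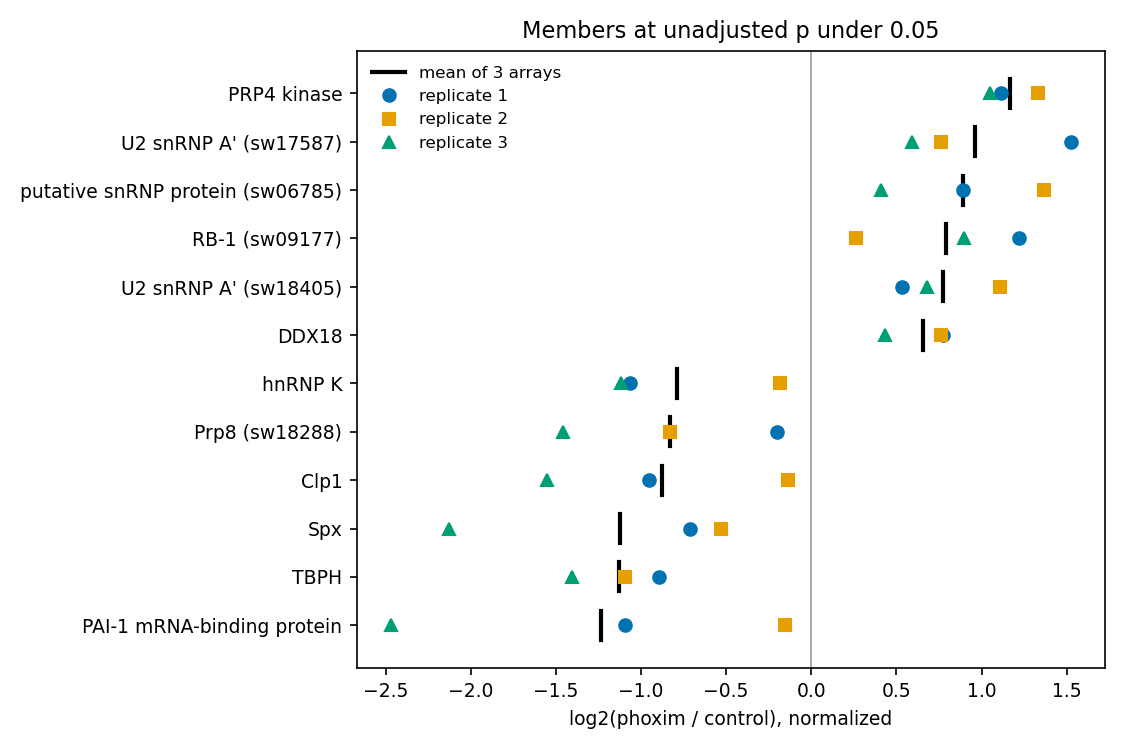
Log2 ratios of phoxim over control (horizontal axis) for the 12 members with an unadjusted p under 0.05, with a point for each of the 3 arrays and a bar at their mean. The 6 lower members all had their lowest value on replicate 3, and PRP4 kinase and TBPH had the narrowest spread among the members 2-fold apart.

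TBPH and PRP4 kinase had the smallest p-values in their directions. TBPH (sw12696, LOC733054) is the insect counterpart of TDP-43, an RNA-binding protein that controls splicing and mRNA stability. Its intensity was 2990, 1031 and 1875 in control RNA and 1511, 685 and 749 in phoxim RNA of replicates 1, 2 and 3. Phoxim RNA was dimmer on every array, and the normalized log2 ratios were -0.89, -1.09 and -1.41. The mean was -1.13 ± 0.26 (SD, n = 3), a 2.19-fold lower level. Its adjusted p was 0.33, and it ranged from 0.26 without replicate 1 to 0.93 without replicate 3 over the alternative settings. With the dyes as labelled the mean was -0.40, and in the authors' deposited ratios the values were -0.73, -0.97 and -1.57.

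PRP4 kinase (sw07381) phosphorylates components of the U4/U6.U5 tri-snRNP in human cells. Its probe gave 117, 99 and 284 in control RNA and 326, 578 and 618 in phoxim RNA. Treated larvae were brighter on every array, and the log2 ratios of 1.11, 1.33 and 1.05 lay close together, with a mean of 1.16 ± 0.15 (SD, n = 3), a 2.24-fold higher level. This was the only tested member with a mean at least 2-fold higher. Control RNA exceeded the blank spots on only 1 of the 3 arrays, so the size of this ratio rests on a dim signal. The adjusted p was 0.31, with a range of 0.20 to 0.94 over the alternative settings, and the mean was 0.28 with the dyes as labelled.

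**Figure D2:**
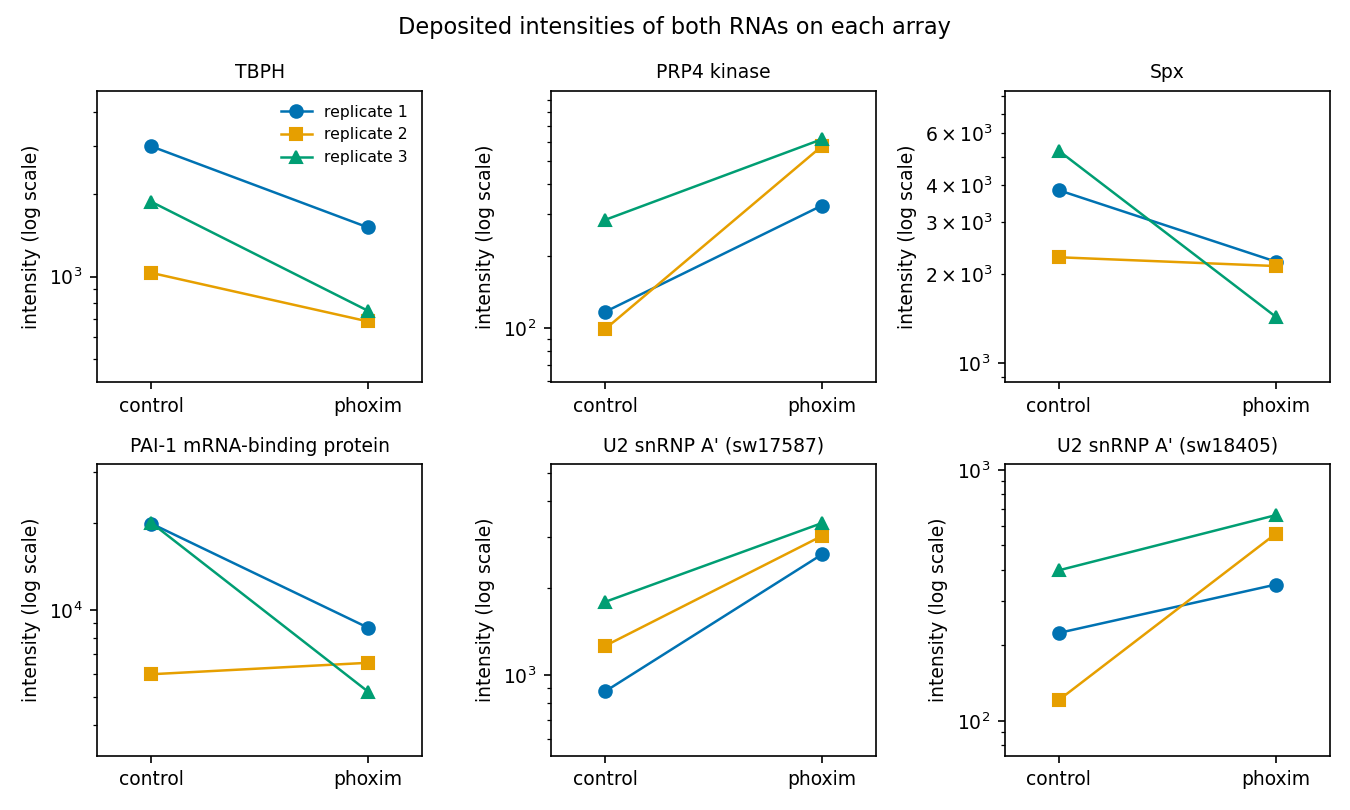
Deposited intensities (vertical axis, log scale) of 6 members in control and phoxim RNA, with a line for each array. TBPH was dimmer in phoxim RNA on all 3 lines and PRP4 kinase brighter on all 3, whereas for PAI-1 mRNA-binding protein the line of replicate 2 was nearly level.

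Among the branch site factors, the tested members were centred near 0 apart from Spx. Their median was 0.11, with 5 of 8 above 0, against 50.3% of all probes. Spx (sw14568), known as SF3b subunit 4, is the SF3b protein that touches the pre-mRNA near the branch site in human cells. It gave 3851, 2284 and 5236 in control RNA and 2209, 2133 and 1438 in phoxim RNA, with log2 ratios of -0.71, -0.53 and -2.13. All arrays were below 0, but replicate 3 was far lower than the others, and the mean was -1.13 ± 0.87 (SD, n = 3; adjusted p = 0.41). SF3a subunit 2 (sw11289), a part of SF3a, had -0.76, 0.16 and -1.12, with opposite signs between replicate 2 and the others. The other SF3 subunits lay near 0 or differed in sign between arrays. The SF3b 14 kDa subunit (sw17188) had 0.26, 0.34 and 0.19. SF3b subunit 3 (sw05008), by contrast, had -1.76, 0.54 and 0.65, so its mean of -0.19 hides a split between replicate 1 and the rest. These 2 subunits were named after their values were seen.

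The snRNP and Sm proteins had the highest median of all roles, 0.17, with 8 of 11 above 0, against 50.3% of all probes. Of these 11, 3 were higher at an unadjusted p under 0.05 in limma, against 6.13% of all probes. They are 3 of the 6 such members, and 2 of them name U2 A′. Probes for the same protein are counted repeatedly among the 8, with 2 for Prp31 and 2 for U2 A′. U2 snRNP A′ (sw18405, LOC732985) is a U2-specific protein that holds the U2 B″ subunit on U2 RNA. It gave 224, 121 and 398 in control RNA and 349, 556 and 660 in phoxim RNA. The log2 ratios were 0.53, 1.11 and 0.68, all above 0, with a mean of 0.77 ± 0.30 (SD, n = 3; adjusted p = 0.43). A second probe (sw17587) whose description also names a protein similar to U2 A′ carries another gene model. It gave 878, 1261 and 1789 in control RNA and 2608, 3021 and 3347 in phoxim RNA, with ratios of 1.52, 0.76 and 0.59 and a mean of 0.96 ± 0.50 (SD, n = 3; adjusted p = 0.39). Both U2 A′ probes were thus higher in treated larvae on all arrays, with the dyes read from the header. With the dyes as labelled the mean of sw18405 was 0.035 and that of sw17587 was 0.45. They were recognised as a pair after their values were seen.

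The third higher member of this role was described only as a putative snRNP protein (sw06785), after a rice protein. Its intensities were 293, 108 and 748 in control RNA and 611, 628 and 1088 in phoxim RNA, and its mean was 0.89 ± 0.48 (SD, n = 3; adjusted p = 0.42). Its largest ratio, 1.37, came from replicate 2, and with the dyes as labelled the mean was -0.02. The Sm proteins, which form the ring around snRNAs, gave no common direction. Sm D1 (sw14297) had -0.60, -0.44 and -0.42, Sm D2 (sw03582) -0.39, 0.57 and 0.30, and snRNP G (sw04110) 0.05, 0.08 and 0.37. Sm D1 was below 0 on every array with a small spread, and its mean of -0.49 ± 0.10 (SD, n = 3) had an adjusted p of 0.54. These 3 were named after their values were seen.

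snRNP F (BGIBMGA005303), the brightest of the role, had the widest spread of all tested members. It gave 38514, 9505 and 9480 in control RNA and 8278, 14312 and 20004 in phoxim RNA. The ratios of -2.10, 0.39 and 0.49 split replicate 1 from the others, and the mean of -0.41 ± 1.47 (SD, n = 3) became 0.44 without replicate 1. Replicate 1 stood against the other arrays for 21 members, against 27.2% of all probes. Replicate 2 did so for 14 members and replicate 3 for 6, against 24.9% and 12.7% of all probes.

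**Figure D3:**
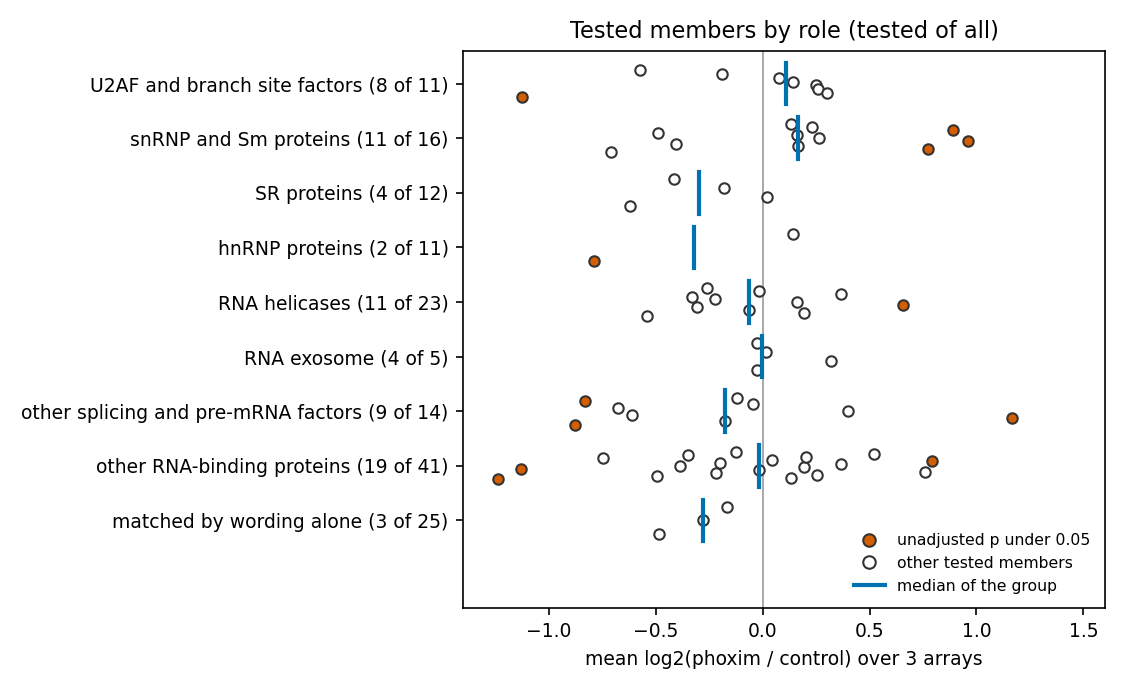
Mean log2 ratio of phoxim over control (horizontal axis) of each tested member by role, with the number tested of all members beside each name and a bar at the median of each role. The 3 filled points above 0 among the snRNP and Sm proteins are both U2 A′ probes and the putative snRNP protein, and the 3 lowest filled points are PAI-1 mRNA-binding protein, TBPH and Spx.

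The tested probes for the U5 proteins Prp8 and 200 kDa helicase had means below 0. Of all tested probes, 50.3% had a mean above 0. Prp8, the scaffold of the U5 snRNP around the active site, had 4 probes, 3 of them tested, each on a different gene model. The probe with the smallest p (sw18288) gave 1480, 489 and 1731 in control RNA and 1240, 403 and 653 in phoxim RNA. Its log2 ratios of -0.20, -0.83 and -1.46 were all below 0, with a mean of -0.83 ± 0.63 (SD, n = 3; adjusted p = 0.45). A second Prp8 probe (sw05724) had -0.43, -0.29 and -1.31, and the third (sw05818) 0.61, -1.32 and -1.11. The 3 means thus lay between -0.83 and -0.61, but sw05818 was above 0 on replicate 1. The fourth probe (sw06405) did not exceed the blank spots in either RNA. The U5 200 kDa helicase (sw19611), which unwinds U4 from U6 RNA, had ratios of 0.07, -1.07 and -1.13, with a mean of -0.71 ± 0.67 (SD, n = 3; adjusted p = 0.50). It was named and set beside Prp8 after its values were seen. Its ratio on replicate 1 was near 0, and replicate 1 was also the least negative array for 2 of the 3 tested Prp8 probes.

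Probes whose descriptions name the same protein were set side by side. Among 18 such families, which leave out the U2 A′ pair, 6 had at least 2 tested probes. The means lay on 1 side of 0 in 5 of these 6 families, and the median distance between the means within a family was 0.19. All but Prp8 had only 2 tested probes, and 50.3% of all tested probes had a mean above 0. The distance between probes of different proteins was not computed. The probes for SF3b subunit 1, the SF3b scaffold, had means of 0.14 and 0.25, and those for SF3a subunit 3 had 0.08 and 0.30. Prp31, a U4/U6 snRNP protein, had 0.13 and 0.26. The pair that differed in sign was SRm300, a large serine- and arginine-rich matrix protein, with 0.02 and -0.42 and only 2 of 6 probes tested. On single arrays the distance between the outermost probes of a family ran from 0.025 to 1.24, and in 7 of 18 cases it was below the distance between their means. The 2 SF3b subunit 1 probes differed by 0.53, 0.90 and 0.69 on replicates 1, 2 and 3, whereas the SRm300 probes differed by 0.035, 0.033 and 1.24. A shared description does not show that 2 probes measure the same transcript.

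**Figure D4:**
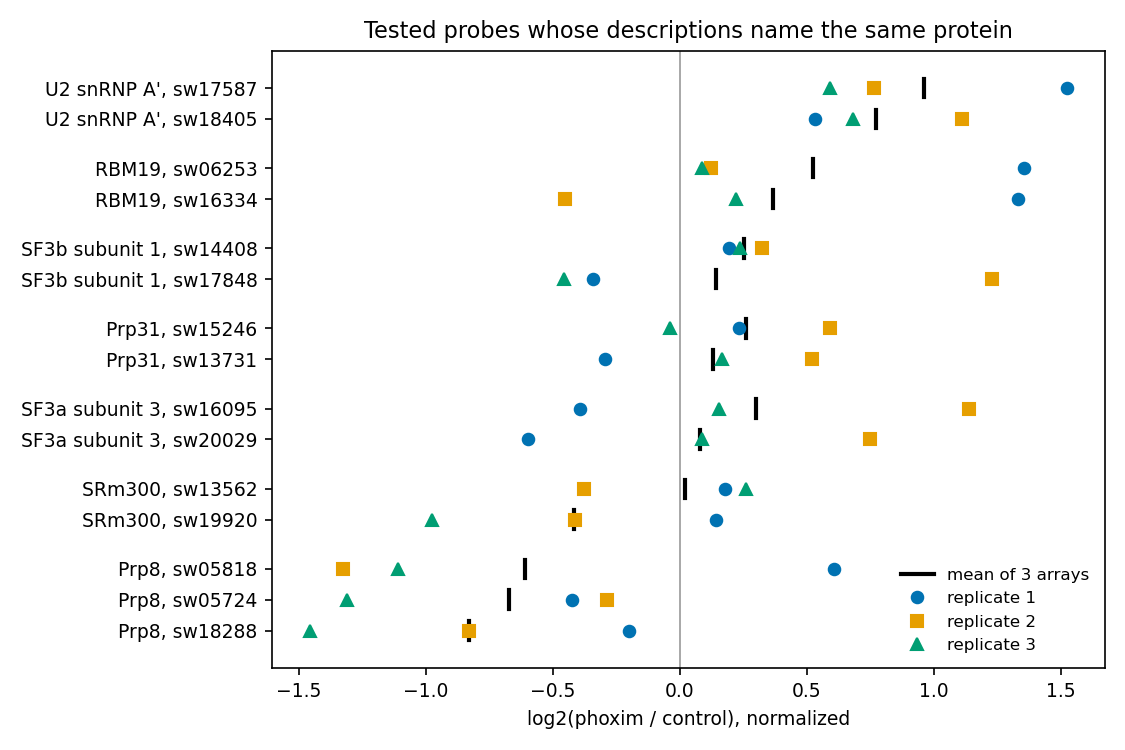
Log2 ratios of phoxim over control (horizontal axis) for the tested probes whose descriptions name the same protein, with a point for each array and a bar at the mean. The 3 Prp8 means lie between -0.83 and -0.61, both U2 A′ probes are above 0 on all arrays, and the RBM19 and SF3a subunit 3 means are set by 1 array each, replicates 1 and 2.

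Of the other splicing and pre-mRNA factors, 7 of 9 lay below 0, with a median of -0.18, whereas 50.3% of all probes were above 0. These 7 include the 3 tested Prp8 probes, so 1 protein is counted repeatedly. Besides Prp8, the lower member was Clp1 (sw06786), an RNA kinase of the pre-mRNA cleavage complex. It gave 1410, 337 and 833 in control RNA and 671, 487 and 231 in phoxim RNA. The ratios were -0.95, -0.13 and -1.55, so replicate 2 was close to 0, and the mean was -0.88 ± 0.71 (SD, n = 3; adjusted p = 0.44). On replicate 2 the raw intensity was higher in phoxim RNA, which was in Cy3 there, and normalization within the array turned the ratio below 0. The same was so for 24 of the 71 tested members on that array.

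SR proteins were measured on few probes and 3 of 4 were below 0, with a median of -0.30, whereas 50.3% of all probes were above 0. Of these 4 probes, 2 were for SRm300. SRp54 (sw05909), a splicing regulator known from Drosophila, gave 1023, 426 and 844 in control RNA and 693, 529 and 369 in phoxim RNA. Its ratios of -0.49, -0.31 and -1.06 were all below 0 and averaged -0.62 ± 0.39 (SD, n = 3; adjusted p = 0.50). On replicate 2 the intensity was higher in phoxim RNA, and the ratio was below 0 after normalization. The other probe for this protein, sw16659, was above the blank spots in neither RNA. The brightest SR probe, for SRm300 (sw19920), had 0.14, -0.41 and -0.98, with no common sign.

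Only hnRNP K and hnRNP U-like 1 could be tested among the hnRNPs. hnRNP K (sw01015), which binds C-rich RNA, gave 1964, 358 and 1216 in control RNA and 869, 496 and 560 in phoxim RNA. Its ratios were -1.06, -0.18 and -1.12, with a mean of -0.79 ± 0.52 (SD, n = 3; adjusted p = 0.45). As for SRp54, phoxim RNA was the brighter on replicate 2 before normalization. A second hnRNP K probe (sw08443) fell short of the brightness limit and had -0.81, 0.35 and -1.28, so both probes were lower on replicates 1 and 3 and near or above 0 on replicate 2. hnRNP U-like 1 (sw05298) had 1.09, -0.10 and -0.56, and the sign differed between arrays.

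The 11 tested RNA helicases had a median of -0.06, with 4 above 0, against 50.3% of all probes. DDX18 (sw21053), a DEAD-box helicase of ribosome assembly, gave 2947, 1944 and 3004 in control RNA and 4842, 4420 and 5293 in phoxim RNA. Phoxim RNA was brighter on every array, and the ratios of 0.77, 0.76 and 0.43 averaged 0.65 ± 0.19 (SD, n = 3; adjusted p = 0.45). This DDX18 probe was the brightest helicase probe, and the other probes, sw19447 and sw01341, were too dim to test. Their ratios were -1.14, 0.62 and 0.49 for sw19447 and -0.09, 0.82 and 0.16 for sw01341. Both were thus below 0 on replicate 1, unlike sw21053. A DEAD-box protein named only by its Drosophila match (sw20202) had -0.94, 0.15 and -0.83, negative on the arrays with phoxim RNA in Cy5.

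The 4 tested exosome subunits had means from -0.03 to 0.32. RRP43 (sw07509), a subunit of its ring, had 0.21, 0.09 and 0.66, all above 0, and a mean of 0.32 ± 0.30 (SD, n = 3; adjusted p = 0.70). RRP40 (sw11297), an RNA-binding cap subunit and the brightest exosome probe, had -0.22, 0.26 and -0.12. The probe for exosome component 1 (sw14953) had -1.10, 0.79 and 0.24, so its mean of -0.02 averages opposite values. It was named after its values were seen.

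Among the 19 other RNA-binding proteins, the means ran from -1.24 to 0.79 around a median of -0.02. PAI-1 mRNA-binding protein (sw12044), known in vertebrates as a ribosome-associated protein, had the lowest mean of all tested members. It gave 19907, 5978 and 20025 in control RNA and 8667, 6550 and 5200 in phoxim RNA. Both RNAs were alike on replicate 2, and the ratios were -1.09, -0.15 and -2.47, with a mean of -1.24 ± 1.16 (SD, n = 3; adjusted p = 0.43). The fold of 2.36 therefore rests on replicates 1 and 3.

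A probe described as developmentally regulated RNA-binding protein 1 (sw09177) gave 118, 192 and 215 in control RNA and 364, 407 and 396 in phoxim RNA. Its ratios of 1.22, 0.26 and 0.90 were all above 0 and averaged 0.79 ± 0.49 (SD, n = 3; adjusted p = 0.44), but control RNA exceeded the blank spots on only 2 of the 3 arrays. Rbmx2 (sw15819), known in yeast as part of a complex that retains unspliced pre-mRNA, gave 1739, 2254 and 2923 in control RNA and 4828, 3873 and 5073 in phoxim RNA. It too was above 0 on every array, with 1.49, 0.37 and 0.42 and a mean of 0.76 ± 0.64 (SD, n = 3; adjusted p = 0.47). RBM19 (sw06253), which acts in ribosome assembly, had 1.36, 0.12 and 0.09, and its mean of 0.52 was set by replicate 1. Its other tested probe, sw16334, had 1.33, -0.45 and 0.22, and the third, sw04953, was above the blank spots in neither RNA.

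Of the 3 tested members matched by wording alone, 2 were arginine methyltransferases named for hnRNPs, their substrates. The methyltransferase-like 4 probe (sw07571) had -0.17, -0.19 and -0.48, and the methyltransferase-like 3 probe (sw11494) had 0.07, -0.41 and -1.11.

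The 12 members at an unadjusted p under 0.05 were also read with single arrays left out. All 6 lower members had their lowest ratio on replicate 3, and 4 of them were closest to 0 on replicate 2. Without replicate 3, 0 of these 6 kept an unadjusted p under 0.05 in limma, against 3 of the 6 higher members. Replicate 3 held the largest ratio in size of all 6 lower members and of 0 higher members. This contrast was thus partly fixed by the array left out. With only 2 arrays left, the share of all probes at that level also went from 10.9% to 5.4%. The 6 lower members then had means from -0.99 to -0.52, with TBPH the lowest at an unadjusted limma p of 0.051, and the 6 higher members had means from 0.74 to 1.22. Among all 71 members, 3 higher and 7 lower had an unadjusted limma p under 0.05 without replicate 1. Together they were 14.1%, against 11.5% of all probes. Without replicate 2 there were 3 higher and 6 lower, or 12.7% against 11.2%. With a term for the dye, 3 of the higher and 1 of the lower members kept an unadjusted p under 0.05, and 6.1% of all probes had one. The higher members had their largest value on replicate 1 in 3 cases and on replicate 2 in the other 3. Only 1 array has the other dye order, so a dye effect and the effect of replicate 2 cannot be told apart.

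Across the 71 members the arrays were related at r = 0.04 for replicates 1 and 2, 0.29 for 1 and 3 and 0.55 for 2 and 3. Over all tested probes the last value was 0.27. These coefficients are a description over probes that share their arrays and labelling, and members that name the same protein are counted repeatedly. Replicates 2 and 3 have opposite dye orders. On single arrays the median of the members was -0.01, 0.12 and -0.15, and that of all probes was 0.13, -0.06 and 0.00, so the members lay below all probes on replicates 1 and 3 and above them on replicate 2. The SD between arrays had a median of 0.46 over the members and 0.49 over all probes, and 7 members had an SD of 1 or more.

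**Figure D5:**
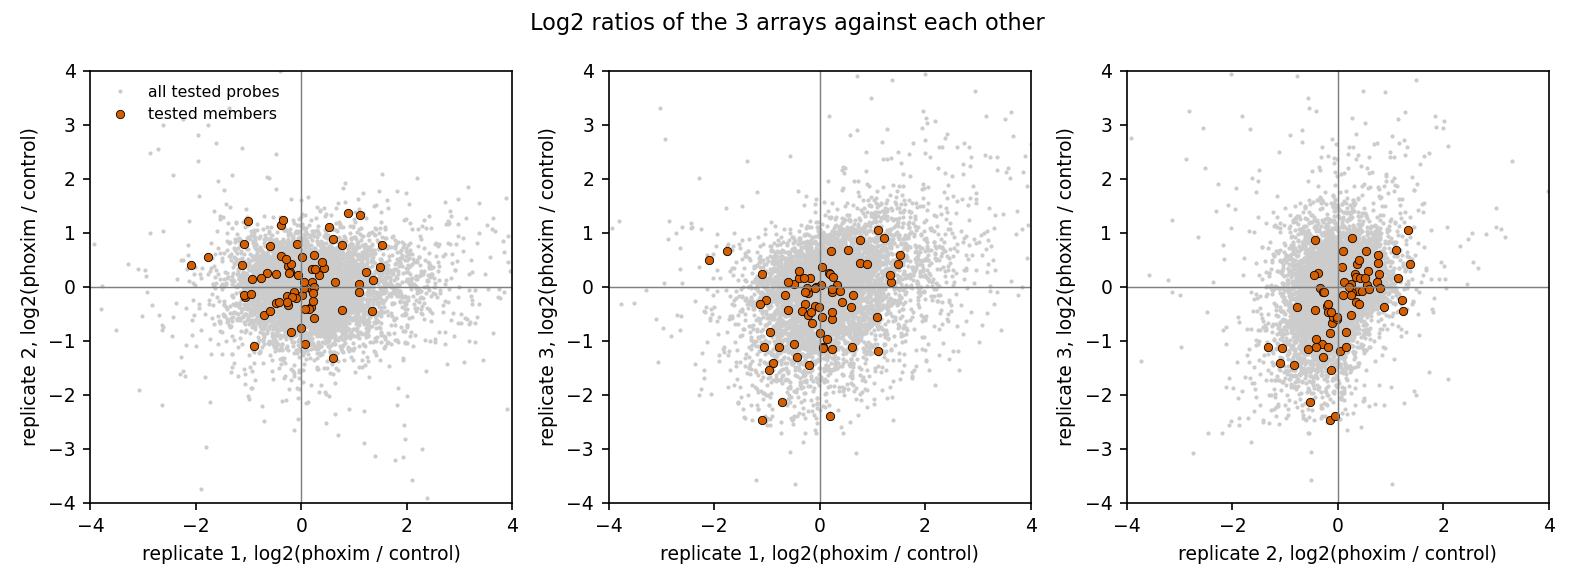
Log2 ratios of phoxim over control on each pair of arrays, with the 71 tested members over all 6154 tested probes, of which 32 lie beyond the axis limit of 4 in size. The members form a rising band for replicates 2 and 3 (r = 0.55) and no band for replicates 1 and 2 (r = 0.04).

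Other genes of mRNA processing were taken by descriptions outside the rule above. Of 86 such probes 24 were tested, and 12 lay on either side of 0, with a median of 0.03. At an unadjusted p under 0.05 in limma there were 0 of 24, against 10.9% of all probes, and none had an adjusted p under 0.05. In the group of exon junction and mRNA decay factors 6 of 7 tested probes were above 0, against 50.3% of all probes. The median of 0.49 was the value of a U6 snRNA-associated Sm-like protein (sw11758). The 2 probes of mago nashi (sw19110 and sw11250), which carry the same gene symbol, had means of 0.08 and -0.02. Upf3 (sw08231, LOC693102), a factor of nonsense-mediated decay, had 0.56, 0.74 and 0.40, and a 3′ exoribonuclease (sw11597) had 0.37, 0.85 and 0.40. Both were above 0 on every array, with adjusted p of 0.50 and 0.52. The 5 tested probes of 3′ end processing were all below 0 in the mean. The lowest were PARN (sw13813), a deadenylase, with 0.23, -0.66 and -1.32, and a poly(A) polymerase (sw05823) with 0.19, -0.82 and -0.90. Both differed in sign between replicate 1 and the others. Of the remaining lists, RNA polymerase II had 9 of 21 probes tested with a median of -0.03, mRNA export and cap binding 2 of 10 with 0.31, and the small RNA pathways 1 of 25.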

How the data were processed

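Fat body RNA was compared on 3 two-colour arrays. Per the labels' protocols, T7 polymerase amplified the RNA before Cy5 or Cy3 was put in. The deposited intensity values of both channels were used. How they were scanned is not given in the sources used here. Since blank spots centred near 0, background was taken as already subtracted. The deposited ratio column, phoxim over control per the file headers, and the deposited log2 value table, whose medians were 0.01, -0.02 and 0.05, differ by at most 5e-09 on the log2 scale. How they were normalized and centred is unknown.

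Normexp with an offset of 50 was applied to the intensities, then loess within each array with control spots at weight 0. For the summed marker levels only, Aquantile normalization between arrays followed. The brightness limit for testing is the 95th percentile of negative control spots (46.9, 101 and 31.8 in Cy5, 188, 307 and 176 in Cy3). Mean ratios were tested against 0 with limma 3.58.1 in R 4.3.3 (lmFit and eBayes, two-sided), adjusted over 6154 probes. The plan set normexp only for intensities without background subtraction, so its use here departed from the plan. The results with no background correction are given below. The array is the block. Spots at 99% of a channel's maximum counted as saturated. The fit was tested on simulated data with independent normal values and no dye effect. That run does not show how the fit behaves on these arrays. Labels name 3 biological replicates, and that number limits the precision. Members, roles, families and lists were chosen with earlier results of these data known, from descriptions. Named members have the same sign on all arrays and are among the 8 smallest p in a direction, are among the 2 smallest p or brightest of a role, or have a mean ratio of at least 1 in size on the log2 scale. Of the other mRNA genes the 2 smallest p in each direction are named. Muscle, fat body, hemocyte, silk gland, epidermis, midgut and gonad markers were listed from descriptions. Probe sequences and the genome were not used here.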

Additional observations from a re-analysis of the deposited data

How the results depend on the processing

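No member reached an adjusted p under 0.05 in limma in any alternative. The count at an unadjusted p under 0.05 was 12, or 16.9% against 10.9% of all probes. With no background correction it was 9 (12.7% against 10% of all probes), 5 of them higher and 4 lower. With no limit on dim probes it was 20 of 158 (12.7% against 8.0%). It was 4 with a dye term (5.6% against 6.1%) and 1 with the dyes as labelled (1.4% against 4.8%). Leaving out 1 replicate gave 3 to 10, the lowest without replicate 3 (4.2% against 5.4%). With a dye term, with the dyes as labelled and without replicate 3, the members' share was thus below that of all probes. The count with the same sign on all arrays was 30. It was 59 with no limit on dim probes (37.3% against 27.9%) and 14 with the dyes as labelled (19.7% against 24.9%). On the remaining pair of arrays it was 36 to 51 when 1 was left out, or 50.7% to 71.8% against 48.0% to 62.4%. The split at an unadjusted p under 0.05, 6 higher and 6 lower, moved both ways. It was 7 and 3 with median centring, 7 and 4 in the authors' deposited ratios, 3 and 6 of 58 members where both RNAs had to exceed the blank spots, 3 and 7 without replicate 1 and 3 and 6 without replicate 2. The median of the members was -0.03. It was 0.20 with median centring, which moved the median of all probes to 0.24, and ranged from -0.18 without replicate 2 to 0.054 without replicate 3.

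Of the 25 named members, 20 kept their direction in every alternative that could be run for them. This count was partly fixed in advance. A member with the same sign on all arrays could not reverse when 1 replicate was left out or a dye term was added. Changing the limit on dim probes left each ratio as it was. The limit on both RNAs left 21 of the 25, without PRP4 kinase, sw09177, sw11494 and sw20202. With median centring RRP40 (sw11297) was at 0.29 and sw07571 at 0.068, with a dye term RRP40 was at 0.046, and with the dyes as labelled sw06785 was at -0.022. When 1 replicate was left out, snRNP F ranged from -0.85 to 0.44, hnRNP U-like 1 from -0.33 to 0.49 and RRP40 from -0.17 to 0.070. The cause was not tested. The test is paired as it stands, since each ratio sets both RNAs of a replicate against each other within an array, and no further replicate block was fitted. The number of arrays limits the precision, and 13 of the 71 tested members were bright in only 1 RNA on at least 1 array.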

Other observations

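Some members outside the rule for named genes were chosen after their values were seen. RBM22 (sw12966), a protein of the catalytic spliceosome, had log2 ratios of 0.20, -0.06 and -2.38, so replicate 3 alone was far from 0. A probe similar to the helicase ROK1 (sw18521), which acts in ribosome assembly in yeast, had 1.10, 0.04 and -1.19, and its mean of -0.02 averages opposite values. The AU-rich RNA-binding hydratase probe (sw13805) had -1.01, 1.21 and -0.25. At the other end, the DEAH-box helicase DHX35 (sw18210) had -0.28, -0.18 and -0.32, and the RD RNA-binding protein (sw19434), a subunit of a factor that pauses RNA polymerase II, had -0.27, -0.28 and -0.11. These small differences had an SD of at most 0.10 between arrays, and adjusted p of 0.75 and 0.80 in limma. Of the 71 tested members, 13 had an SD under 0.2.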
